A study of Mus musculus with 6 samples.

Results

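SALL4 sites at the ends of protein-coding genes were described in mouse embryonic stem cells. A site was a region called in both wild-type SALL4 CUT&RUN libraries, with intervals that overlap by at least 1 bp, and in neither knockout library. It was kept where its midpoint lay on chromosomes 1 to 19 within 500 bp of either end of a coding gene. Of 37997 consensus regions in all, 36443 lay on these chromosomes, and 996 of them, 2.73%, met the distance rule (95% Wilson interval 2.57 to 2.91%, counting error only). They lay at the ends of 1061 genes. The wild-type cells (Sall4 F/F) carry floxed Sall4 alleles, which hold recombination sites, and the knockout cells (Sall4 -/-) carry null alleles. Which part of the gene the knockout cells lack is not given here. All cells were grown with 2 kinase inhibitors and the cytokine LIF. Each genotype had 2 SALL4 libraries, and the labels name 1 line per genotype, so that other differences between the lines cannot be told apart from the genotype. An IgG sample of each line was not analysed here. No label says that the replicates came from separate cultures, so the spread between them may be technical.

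SALL4 is a zinc-finger protein of embryonic stem cells and early embryos. It recruits the NuRD complex, which slides nucleosomes and removes acetyl groups from histones, and its last zinc-finger cluster is known to bind short A/T-rich DNA. The start of a gene holds its promoter, where the transcription machinery assembles, whereas the region around the transcription end holds the signals for cleavage and polyadenylation. One class of promoter carries the CCAAT box, which is bound by the 3-subunit factor NF-Y, often in several copies upstream of the start of cell-cycle genes and of the histone genes that are expressed in S phase. CUT&RUN tethers a nuclease to an antibody inside permeabilised cells, so that DNA near the bound protein is released and sequenced.

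The promoters below belong to the 5 best-ranked genes with a site at their start whose region overlaps the promoter window, ranked by the worse of their 2 fold enrichment ranks. A pair of histone promoters was added after the values were seen, because this family stood far above the others. Each sequence holds the 250 bases before the annotated start, 5′ to 3′ on the strand of the gene (RefSeq, GRCm38.p6), and the capitals mark CCAAT or its reverse complement ATTGG. Prr11, chr11:87108715-87108964, minus strand, and its divergent neighbour Ska2, chr11:87109011-87109260, plus strand, share 1 region. Sp5 lies at chr2:70474673-70474922, plus strand, Stk38 at chr17:29007996-29008245, minus strand, Ngdn at chr14:55015204-55015453, plus strand, H2bc14 at chr13:21721794-21722043, plus strand, and H2ac22 at chr13:21787249-21787498, minus strand.
Prr11: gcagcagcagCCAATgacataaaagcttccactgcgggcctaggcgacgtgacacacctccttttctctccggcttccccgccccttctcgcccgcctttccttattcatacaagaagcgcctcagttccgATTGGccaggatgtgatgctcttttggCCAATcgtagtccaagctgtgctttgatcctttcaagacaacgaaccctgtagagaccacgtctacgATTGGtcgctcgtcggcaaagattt
Ska2: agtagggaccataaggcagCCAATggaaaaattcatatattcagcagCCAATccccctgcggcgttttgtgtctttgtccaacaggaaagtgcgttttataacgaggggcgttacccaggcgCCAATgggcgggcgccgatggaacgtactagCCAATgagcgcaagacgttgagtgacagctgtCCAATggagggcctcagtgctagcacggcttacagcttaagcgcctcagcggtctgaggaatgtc
Sp5: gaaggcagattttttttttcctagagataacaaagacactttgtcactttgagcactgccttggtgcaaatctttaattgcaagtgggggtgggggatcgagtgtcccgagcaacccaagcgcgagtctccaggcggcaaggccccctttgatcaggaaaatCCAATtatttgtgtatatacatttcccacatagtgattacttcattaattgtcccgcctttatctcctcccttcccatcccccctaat
Stk38: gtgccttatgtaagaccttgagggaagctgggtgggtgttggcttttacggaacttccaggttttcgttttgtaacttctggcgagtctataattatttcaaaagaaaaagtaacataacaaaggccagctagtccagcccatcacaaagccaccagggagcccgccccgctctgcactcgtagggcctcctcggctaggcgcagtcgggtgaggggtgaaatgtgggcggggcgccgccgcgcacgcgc
Ngdn: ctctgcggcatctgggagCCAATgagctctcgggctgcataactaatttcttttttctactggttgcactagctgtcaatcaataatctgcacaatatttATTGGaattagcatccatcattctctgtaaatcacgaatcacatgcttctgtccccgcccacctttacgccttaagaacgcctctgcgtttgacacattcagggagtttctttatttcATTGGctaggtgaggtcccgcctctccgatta
H2bc14: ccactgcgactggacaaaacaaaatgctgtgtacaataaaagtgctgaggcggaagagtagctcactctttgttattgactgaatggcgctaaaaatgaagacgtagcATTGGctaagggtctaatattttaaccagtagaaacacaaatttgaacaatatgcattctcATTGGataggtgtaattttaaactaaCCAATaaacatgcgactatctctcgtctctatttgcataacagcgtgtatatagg
H2ac22: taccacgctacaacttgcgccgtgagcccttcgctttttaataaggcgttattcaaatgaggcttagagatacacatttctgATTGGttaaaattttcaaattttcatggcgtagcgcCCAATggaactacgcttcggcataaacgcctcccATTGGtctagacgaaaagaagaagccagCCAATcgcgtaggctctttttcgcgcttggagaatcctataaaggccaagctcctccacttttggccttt
These promoters hold 4 copies of the box at Prr11, 5 at Ska2, 1 at Sp5, 0 at Stk38, 3 at Ngdn, 3 at H2bc14 and 4 at H2ac22. At Prr11 the summits lay 215 and 232 bases upstream of its start in replicates 1 and 2, which is 332 and 315 bases upstream of the start of Ska2 and outside the bases printed for that gene. At Stk38 they lay 214 and 332 bases upstream, the second outside the printed bases. At Ngdn the summits lay 139 and 119 bases upstream of the start in replicates 1 and 2. At H2bc14 they lay 50 and 61 bases upstream, and at H2ac22 143 and 159 bases upstream. At Sp5 they lay 8 and 19 bases downstream of the start.

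Every value below rests on 2 wild-type libraries. The lists give no read totals, so the depth of the libraries is not known. The summit height in fragments was solved from each line's fold enrichment and p-value and came out whole for 100% of lines, and its median was 9 in both wild-type lists. The wild-type lists held 52825 and 46298 autosomal intervals, and the knockout lists held 0 each, all of their 34 and 39 intervals lying on X or Y. With regions as the units, no test across regions was run, because regions of a library are not replicates, and differences are given per library instead. With 2 libraries, an exact sign-flip test could not go below p = 0.5.

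Intervals at gene ends were counted in each library first. There were 1546 and 1326 in wild-type replicates 1 and 2 (mean 1436 ± 156, SD, n = 2) and 0 and 0 in the knockout. The groups did not overlap, and the difference was 10.48 on the log2(number + 1) scale, against a spread of 0.156 (SD, log2) in wild type. Since the knockout lists hold no autosomal interval at all, their count at gene ends could only be 0, the size of the difference is set by the pseudocount of 1, and it is not particular to gene ends. Exact permutation of the 4 library labels (two-sided) gave p = 0.333, the lowest this design can reach, which adds nothing to these counts.

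Sites gathered at transcription starts and not at transcription ends. The strand was known for 873 of the 1061 genes (82.3%). Of the 996 regions, 597 lay at a start (59.9%, 56.9 to 62.9%), 244 at an end (24.5%, 21.9 to 27.3%), 14 of them at both, and 169 only at genes of unknown strand. Of the 827 with a known strand, 72.2% (69.0 to 75.1%) lay at a start. Among 16457 coding genes of known strand, 644 had a region at the start (3.91%) and 253 had a region at the end (1.54%). The sequence within 500 bp of a start makes up 0.646% of the autosomal sequence between the first and last gene and held 1.64% of the regions, a ratio of 2.54. The same ratio was 2.73 and 2.59 in the lists of replicates 1 and 2. For transcription ends the ratio was 1.02, and 1.08 and 1.09 in the 2 lists.

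Gene-rich sequence held more regions in general, so the density was also compared with sequence 2 to 10 kb from the same ends. At starts there were 37.9 regions per Mb against 20.5 in the flanks, a ratio of 1.85, with 1.95 and 1.88 in the separate lists. At transcription ends there were 15.3 per Mb against 16.8, a ratio of 0.908, with 0.938 and 0.963 in the lists. Thus the excess at starts was present under both backgrounds in both libraries, and the density at transcription ends lay near that of its surroundings. Both ends pooled gave 1.71 against all sequence and 1.28 against the flanks. The distance rule has an edge at 500 bp. The 125 regions 400 to 500 bp from an end had median fold enrichments of 6.20 and 6.0, and the 120 regions 500 to 600 bp away had 6.89 and 6.12.

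**Figure D1:**
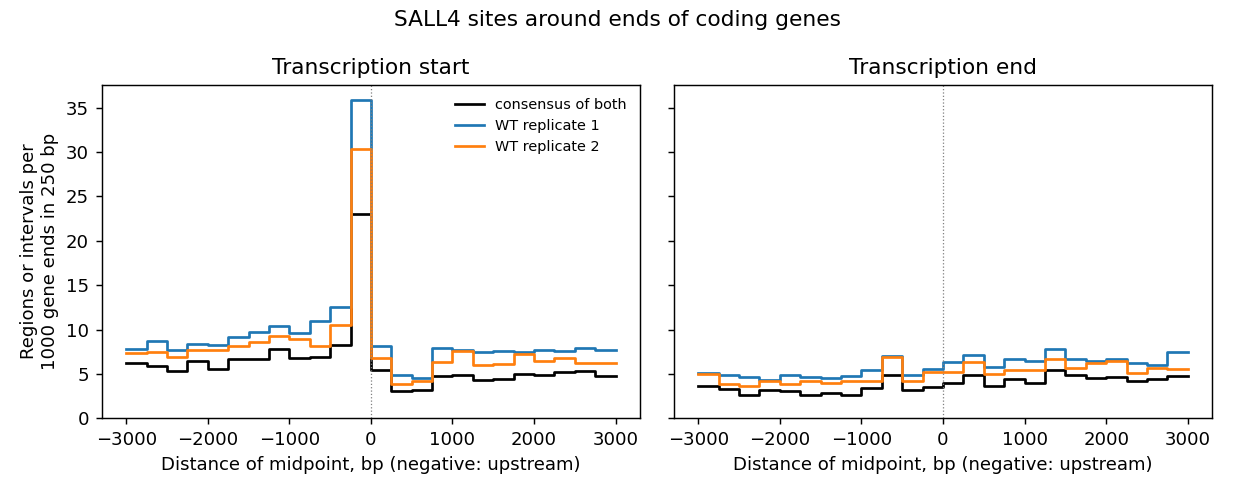
Number of SALL4 sites per 1000 gene ends in bins of 250 bp, by the signed distance of the midpoint from the transcription start (left) and the transcription end (right) of coding genes of known strand; lines show the consensus regions and the intervals of each wild-type replicate. The bin just upstream of the start holds 379 pairs of a consensus region and a start, against 90 just downstream. No bin at the transcription end stands out in this way. A region near several gene ends counts once for each.

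The gathering was narrow and lay upstream. Of 655 pairs of a region and a start, 514 (78.5%, 75.2 to 81.5%) had the midpoint upstream of the start, with a median position of -131 bp and quartiles of -222 and -34 bp. The 250 bp before the start held 379 such pairs, and the next 250 bp further upstream held 135. A region near several starts counts once for each. Downstream, the first 250 bp held 90 and the following 250 bp held 51. That last bin was below the bins 500 to 1000 bp upstream, which held 114 and 111. Around transcription ends the same bins held 53 and 58 pairs upstream and 65 and 81 downstream. The 81 include a region at the shared end of several Ugt1a genes, counted once for each gene. The gene table places a start at the outermost transcript, and 573 of the 655 pairs also lay within 500 bp of a start in the promoter table.

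The strongest sites at starts belonged to genes of varied function. The strongest lay at chr5:115489394-115491211 at Sirt4, a mitochondrial sirtuin, with fold enrichments over the local background of 36.5 and 32.6 in replicates 1 and 2 (values of the authors' peak caller here and below). Ifitm2, a membrane protein induced by interferon, followed with 31.7 and 24.1 at chr7:140959163-140961162. Both regions lie at the outermost start of the gene table and overlap no promoter window of that gene in the promoter table. They were also the widest of all 996, at 1818 and 2000 bp.

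The shared promoter of Ska2, a kinetochore protein, and Prr11 had fold enrichments of 29.2 and 23.5, over 45 and 35 fragments at the summit. Sp5, a transcription factor induced by WNT signals, had 20.8 and 25.7. Ngdn had 20.3 and 22.4, and Stk38, a kinase, had 21.0 and 18.7. Med19, a subunit of the Mediator complex, had 20.3 and 18.01, and Nlk, the Nemo-like kinase, had 21.1 and 17.5. Among these genes replicate 2 was the higher one at Sp5 and Ngdn and replicate 1 at the others. The SD over the replicates ranged from 1.43 at Ngdn to 5.36 at Ifitm2.

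Sites at transcription ends reached a like strength. Ttc23l had fold enrichments of 33.1 and 31.3 at chr15:10496513-10497413, 260 bp past its end. Epha7, an ephrin receptor, had 27.3 and 25.1 at a site 324.5 bp past its end, and a second, weaker region of 4.57 and 5.03 lay inside the gene near the same end. Atad5, which unloads the sliding clamp PCNA after replication, had 26.2 and 20.4. Nacc2 had 21.6 and 17.5, Gabrp, a subunit of GABA receptors, 19.6 and 20.5, and Slamf6, a receptor of lymphocytes, 19.3 and 20.1. H2ac22, a histone H2A gene, had 17.2 and 15.6 at its end, and Hspb8, a small heat-shock protein, 16.5 and 15.1.

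Some regions touched several gene ends. Of the 996, 106 lay at the ends of more than 1 coding gene, 58 of them at the starts of more than 1. Opposite starts within 1 kb of each other, as at divergent promoters, were found at 18.8% of the 644 starts with a region, against 10.6% of all 16457. A region between such starts can count for both of them, so these starts are not separate sites. The part of this double counting in the difference was not tested. After Prr11 and Ska2, the best-ranked such region lay between Agpat1, an enzyme of phospholipid synthesis, and Rnf5, a ubiquitin ligase, with fold enrichments of 18.98 and 17.2. Nkx6-2, a homeobox gene, and Inpp5a had 20.7 and 14.6 at their converging ends. Nfkbib, an inhibitor of NF-κB, and Sirt2, a deacetylase, had 19.6 and 14.0 over their starts.

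At the level of genes, 1015 had 1 region at their ends and 46 had 2, and 24 had a region at each end. Edn1, the precursor of the peptide endothelin, had fold enrichments of 17.2 and 12.9 at its start and 6.89 and 5.44 at its end. Nufip2 had 14.6 and 12.5 at its start and 4.61 and 4.52 at its end, and Taar7f, a trace amine receptor, 15.2 and 14.96 at its start and 3.38 and 6.88 at its end. In these 3 genes the start carried the stronger region in both libraries. H2ac22 went the other way, with 12.8 and 15.3 at its start and 17.2 and 15.6 at its end. Over all 24 genes the strongest region at the start exceeded that at the end in both libraries in 9, the end exceeded the start in 9, and neither held in 6. H2bc3, another histone gene, was among the last, with 12.2 and 14.96 at its start and 14.5 and 13.6 at its end.

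Histone genes stood far above every other list. Of 20665 coding genes, 1061 had a region at an end (5.13%), whereas 44 of the 81 genes of the histone list did (54.3%). When regions needed a −log10 q-value of 10 or more, 15 of the 81 did (18.5%), against 1.17% of coding genes. The other lists were not compared one by one at that threshold. These lists are described by counts, with no test of a list. Replication-dependent histone genes are short, lack introns and lie in clusters, with a large one on chromosome 13. Their products package newly copied DNA. Regions were found at 13 of 18 H2B genes, 13 of 23 H2A genes, 9 of 16 H3 genes, 6 of 14 H4 genes and 3 of 10 H1 genes. On chromosome 13 they were found at 34 of 55 genes of the list, on chromosome 3 at 5 of 11 and on chromosome 11 at 3 of 5. Among genes of up to 1000 bp, 39 of 64 in the list and 8 of 1321 others had a region at an end.

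The histone genes made up 42 of the 996 regions (4.22%), 24 at starts and 18 at ends, with 4 counted under both and 4 at genes of unknown strand only. Their median fold enrichments were 8.61 and 7.04, against 6.61 and 6.0 over all regions at gene ends. The lowest were 4.06 and 3.52 and the highest 17.2 and 15.6. The median summit held 13 and 11 fragments, and the local background was at 1.06 and 1.00 times the lowest of its list. At H2bc14 the fold enrichments were 14.5 and 13.6, and at the divergent pair H2ac22 and H2bc22 they were 12.8 and 15.3. At H1f3, a linker histone gene, they were 12.7 and 12.5. The replicates differed widely at the shared start of H2ac8 and H2bc8, with 13.2 and 4.37 (SD 6.25).

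Genes of histone variants, several of them made throughout the cell cycle, were divided. H2az2 and H2ax had a region at an end, that of H2ax with fold enrichments of 4.57 and 3.52. H2az1, H1f0, H1f10 and H2aj had none within 500 bp of the gene. H3f3a and H3f3b each had 1 region in or beside the gene whose midpoint lay at neither end, with fold enrichments of 4.73 and 6.0 and of 8.13 and 3.78. The germ-line genes H1f6, H1f7, H1f8, H2ac1, H2bc1 and H2al2a had none. Some histone promoters are near-identical copies. Those of H2bc23 and H4bc24 were 100% identical and those of H4c17 and H4c18 were 99.3% identical over 300 bp, and none of these 4 genes had a region. H3c14, with a region, and H3c15, without, were 94.7% identical. H4c11 and H4c12, both with a region, were 91.3% identical. The regions of H3c14, H4c11 and H4c12 lay at their transcription ends, whereas the identity is that of the promoters. The part of such copies in the counts was not tested.

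**Figure D2:**
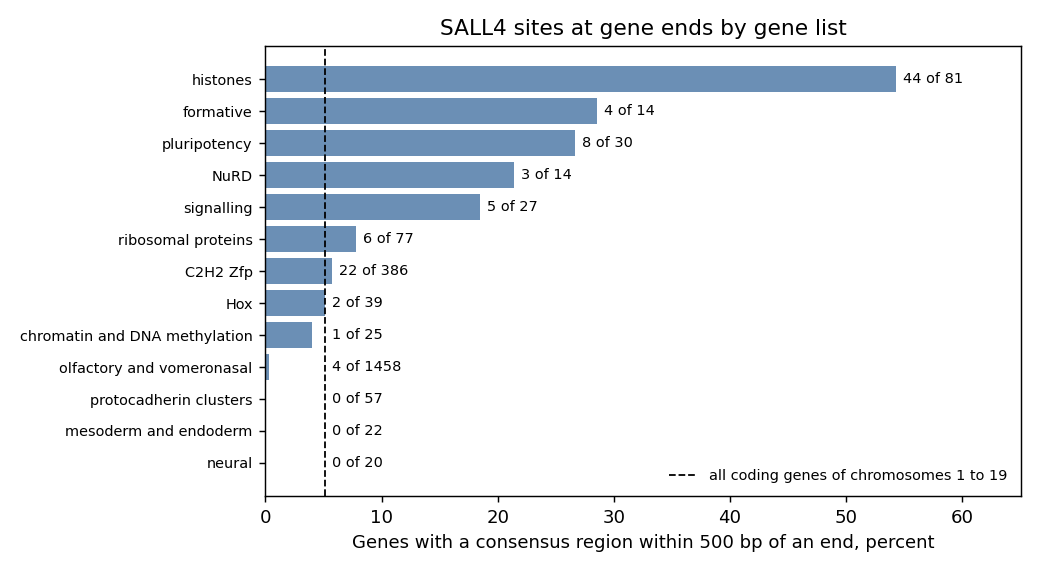
Percent of the coding genes of each list that have a consensus SALL4 region within 500 bp of either end, with counts beside the bars; the dashed line is the value for all coding genes of chromosomes 1 to 19 (5.13%). The histone list reaches 54.3%, and the neural, mesoderm and endoderm, and protocadherin lists are at 0.

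Regulators of the pluripotent state carried sites at their ends more often than coding genes as a whole. Of 30 listed genes on these chromosomes, 8 had one (26.7%, against 5.13%). Mycn, a proto-oncogene of early embryonic cells, had fold enrichments of 10.9 and 12.1 at its start. Zfp42, the marker of naive cells also known as Rex1, had 9.46 and 10.01 at its start. The homeobox gene Nanog had 5.45 and 5.72, Stat3, the effector of LIF, 5.37 and 4.74, and Tdgf1, a co-receptor of Nodal, 4.13 and 6.80, all at the start. Fgf4, the main activator of ERK in these cells, had 4.06 and 4.02 at its end. At Sall4 itself a region lay at chr2:168767099-168767536, at an end of the gene whose strand was not in the table, with 14.7 and 9.05. Tbx3, also of unknown strand, had 6.23 and 6.67. Pou5f1 and Sox2 had no region at their ends.

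The lists of the formative state, of NuRD and of signalling also had shares above the 5.13% of all coding genes, from few genes each. When regions needed a −log10 q-value of 10 or more, genes with a region numbered 9 in place of 21 over all hand-written lists, pluripotency included, and 241 in place of 1061 over all coding genes. In the formative list, 4 of 14 had a region (28.6%). Etv5, an ETS factor downstream of FGF signals, was the strongest, with 19.7 and 17.7 at its start. Its relative Etv4 had 4.57 and 7.01, Zic2 had 7.15 and 7.73, and Otx2 had 4.44 and 4.12 at its end. Of 14 NuRD genes 3 had a region (21.4%). The histone chaperone Rbbp4 had 18.8 and 8.40 at its end, Mbd2 had 8.13 and 11.6, and Gatad2b had 4.82 and 4.76 at its start. At Rbbp4 the libraries differed by more than 2-fold (SD 7.35).

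Of 27 signalling genes 5 had a region (18.5%). The Notch ligand Jag1 had 19.97 and 16.3 at its start, and the LIF receptor Lifr 8.26 and 8.84. Dusp6 and Spry4, feedback inhibitors of ERK signalling, had 6.61 and 6.04 and 7.62 and 8.84. Tcf7l2, a nuclear effector of WNT, had 4.82 and 4.08 at its end. Of 25 regulators of chromatin and DNA methylation 1 had a region (4%), near the 5.13% of all coding genes. It was Jarid2, a subunit of Polycomb complex PRC2, with 6.58 and 4.71 at its start.

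In contrast, none of the 20 neural genes and none of the 22 mesoderm and endoderm genes had a region at an end. With so few genes a list, a count of 0 does not set them apart from 5.13%. The protocadherin clusters had 0 of 57 genes with a region, and olfactory and vomeronasal receptor genes 4 of 1458 (0.274%). Ribosomal protein genes (6 of 77, 7.79%), Zfp genes (22 of 386, 5.70%) and Hox genes (2 of 39, 5.13%) lay near the value of all coding genes.

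The promoters under these regions were rich in CCAAT boxes. The box was chosen after the sequences above had been seen. Windows of 300 bp, from 250 bp before to 50 bp after a start, were searched on both strands without overlap. Of 535 windows overlapped by a region at the start of their gene, 381 (71.2%, 67.2 to 74.9%) held at least 1 copy and 148 (27.7%, 24.0 to 31.6%) held at least 3. Of 20085 promoters of coding genes on these chromosomes, 7656 (38.1%) held at least 1 and 745 (3.71%) held at least 3. Without histone genes the shares were 69.6% and 25.2% of 507 windows, and in the 28 overlapped histone windows they were 100% and 71.4%.

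A word of the same bases in another order, TAACC with its reverse complement GGTTA, gave smaller differences. At least 1 copy was found in 32.7% of the overlapped windows and in 24.4% of all promoters, and at least 3 in 0.561% and 0.533%. Over all 512 words of 5 bases, counted on both strands, CCAAT had the highest ratio of copies per overlapped window to copies per promoter, at 2.91 (1.65 against 0.565). The share of windows with at least 3 copies was 38.2% (30.3 to 46.7%) in the strongest of 4 groups by region strength and 21.7% (15.9 to 28.9%) in the weakest, with 32.6% and 18.7% between them. The boxes are matches of letters, and NF-Y was not measured.

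**Figure D3:**
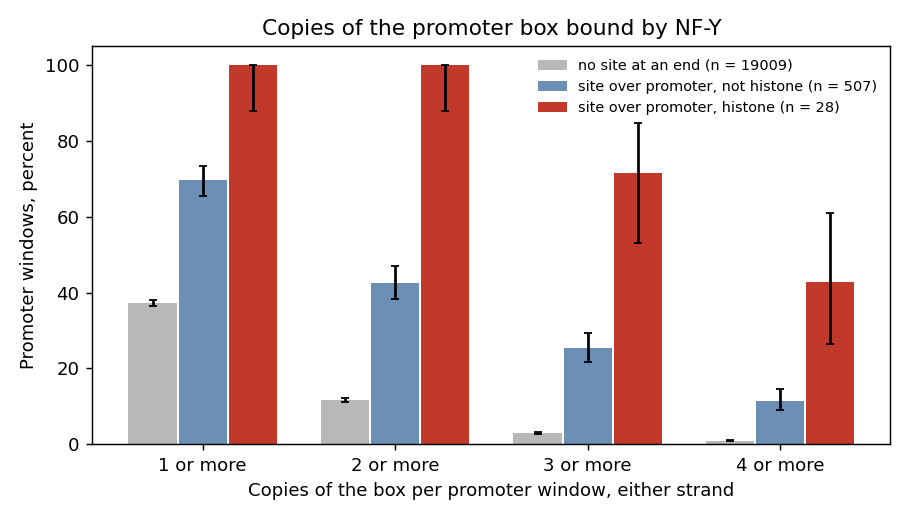
Percent of promoter windows with at least 1, 2, 3 or 4 copies of the CCAAT box on either strand, for coding genes with no SALL4 region at an end, for windows of other than histone genes that a region at the start overlaps, and for such windows of histone genes; bars are shares and error bars 95% Wilson intervals. At 3 or more copies the shares are 3.06%, 25.2% and 71.4%.

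The A/T-rich words that SALL4 is known to bind were found at shares near those of all promoters. The share with AATATT was slightly lower and that with AATAT or ATATT slightly higher. Both shares were higher in histone promoters, but for AATATT the interval there includes the share of all promoters. AATATT, which is its own reverse complement, was found in 44 of 791 promoters of genes with a region at the start (5.56%, 4.17 to 7.39%) and in 5.90% of all promoters. AATAT or ATATT was found in 23.0% (20.2 to 26.1%) of these promoters, against 21.1% of all. In the 535 overlapped windows, the set in which CCAAT was counted, the word AATATT was found in 5.05% (3.49 to 7.24%) and AATAT or ATATT in 24.5% (21.0 to 28.3%). In the 76 promoters of all listed histone genes, with or without a region, the shares were 9.21% (4.53 to 17.8%) and 35.5% (25.7 to 46.7%), and the median A+T content was 54%. By copies per overlapped window against copies per promoter, AATAT ranked 376 of the 512 words, at 0.912. In the 791 promoters the median A+T content was 44.7%, against 43.0% in all. The median CpG ratio, the number of CG pairs over that expected from the numbers of C and G, was 0.711 against 0.586. A window without the word says nothing on DNA outside it.

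Regions at gene ends were slightly weaker and narrower than the 35447 others. Their median fold enrichments were 6.61 and 6.0 in replicates 1 and 2, against 7.15 and 6.54. On the log2 scale the ratios of medians were -0.11 and -0.12, with an SD of 0.0059 over the replicates. The summits held a median of 10 and 9 fragments, against 11 and 10. Their median width was 284.5 bp (quartiles 215 and 381), against 328 bp (237 and 467), a ratio of 0.867. Of the 996, 24 (2.41%) were at least 800 bp wide, against 5.43% of the others. By position these were 8 of 597 at starts (1.34%) and 14 of 244 at transcription ends (5.74%). Among regions of known strand the lower share was thus that of starts, and regions of unknown strand were not counted apart. Regions at starts had a median width of 269 bp and those at transcription ends 312 bp.

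The local background differed between starts and ends. At starts its median was 0.671 and 0.699 fragments in replicates 1 and 2, which is 1.48 times the lowest background of each list. At transcription ends it was 0.479 and 0.499, the same as in all other regions. At starts the median pileup was 11 and 10 fragments and the median fold enrichment 6.61 and 6.0. At transcription ends the pileup was 10 and 9 fragments and the fold enrichment 6.89 and 6.04. The order of the 2 measures thus differs between starts and ends, and a fold enrichment at a start is taken over a higher background. The part of the raised background in the calls at starts was not tested.

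**Figure D4:**
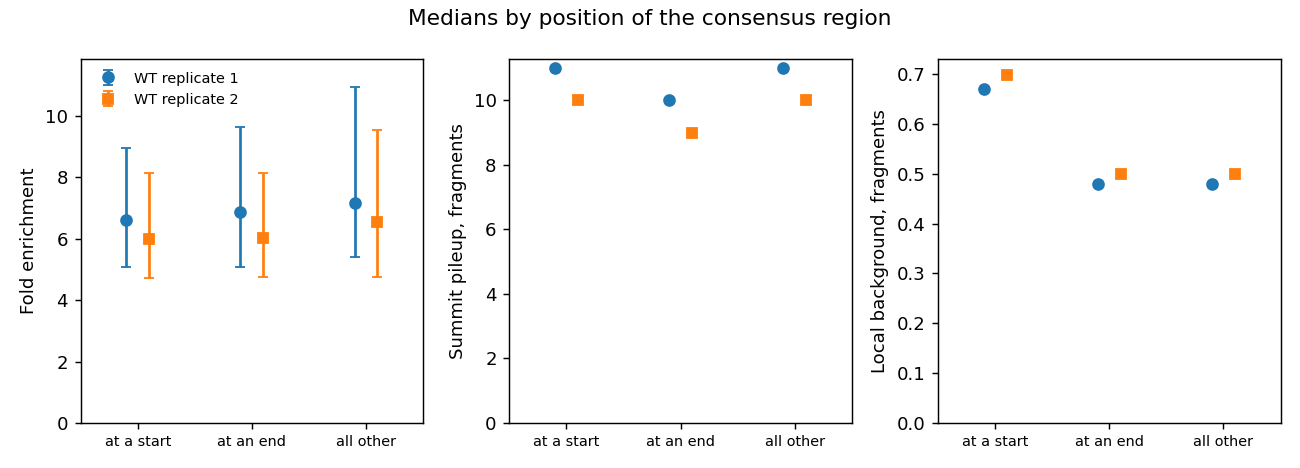
Median fold enrichment (left, bars show the quartiles), summit pileup in fragments (middle) and local background in fragments (right) of consensus regions at a transcription start (n = 597), at a transcription end (n = 244) and elsewhere on chromosomes 1 to 19 (n = 35447), for wild-type replicates 1 and 2. The background at starts, 0.671 and 0.699, is the highest of the 3 positions in both replicates.

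Agreement between the replicates was lower at gene ends by some measures and higher by others. Of the intervals at ends, 1012 of 1546 in replicate 1 were found in replicate 2 (65.5%, 63.1 to 67.8%), and 1009 of 1326 the other way (76.1%, 73.7 to 78.3%). The shares for other autosomal intervals were 70.4% and 79.4%. Each list was divided into 5 groups by fold enrichment, and agreement rose with strength. In the weakest group the shares were 35.6% and 54.8% at ends and 37.5% and 51.9% elsewhere, and in the strongest they were 99.5% and 100% at ends and 99.9% in both lists elsewhere. In the next strongest they were 90.2% and 94.1% at ends, below the 93.0% and 97.0% elsewhere. In each of the 3 weaker groups the sign of the difference changed between the libraries. Intervals at ends were weaker to begin with, with median fold enrichments of 5.51 and 5.37, against 5.93 and 5.63.

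Across the 996 regions the fold enrichments of the replicates correlated with Spearman's rho 0.708 and, as log2 values, Pearson's r 0.775, and across the others with 0.771 and 0.835. These are correlations across regions of the same 2 libraries, given as a description. The log2 ratio of replicate 2 to replicate 1 had a median of -0.13 and an SD of 0.421, against -0.13 and 0.426 elsewhere. Fold enrichments lay within 1.5-fold of each other at 81.3% of the regions and differed by over 2-fold at 22 (2.21%), against 81.6% and 3.10% elsewhere. The summits of the replicates lay a median of 30 bp apart, 26 bp at starts and 39 bp at transcription ends, against 32 bp elsewhere. They lay within 100 bp of each other at 87.0% of the 996 regions, against 85.0% elsewhere, with 90.6% at starts and 79.1% at transcription ends.

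**Figure D5:**
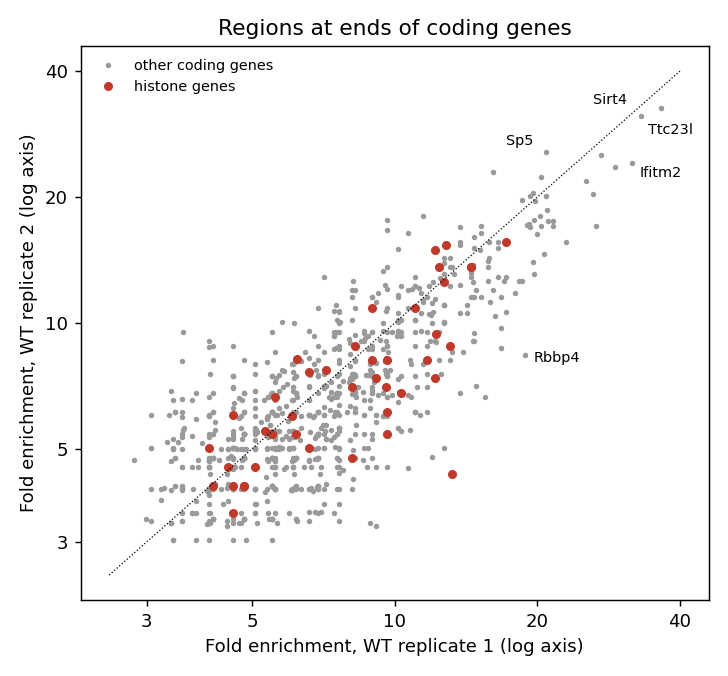
Fold enrichment in wild-type replicate 1 (x, log axis) and replicate 2 (y, log axis) for the 996 regions at ends of coding genes, with regions at histone genes in red and the dotted line marking equal values. Most points lie near the line, Sirt4 is highest, Rbbp4 lies well below the line, and the histone regions range from 4.06 to 17.2 in replicate 1.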

How the data were processed

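Per the submitters' processing notes, the tools Trim Galore 0.6.0, cutadapt 1.18, FastQC 0.11.8, BWA 0.7.17 and MACS2 2.1.1.20160309 and the build GRCm38 were used. Their settings and the control of the peak calls are not given in the sources used here. Each of the 4 deposited lists was called on 1 library. Every line of the deposited lists carries a score, equal to its −log10 q-value times 10 with decimals dropped. The fold enrichment in the deposited lists is the authors' ratio of summit height to local background. The authors' −log10 p-value and −log10 q-value describe that summit.

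Lines of a list that overlap were joined, and the strongest gave the fold enrichment. Pileup and background were solved from fold enrichment and Poisson p-value (pseudocount 1, tolerance 0.0001 in −log10 p). Gene ends came from the RefSeq table of GRCm38.p6, and strands from its promoter table, which matched 79.6% of the 20665 coding genes and none on chromosome 18. The comparison of start and end was to be void if under 80% of genes had a strand. That bar was met only by the genes with a region (82.3%), to which it was applied, and not by all coding genes. The comparison used genes of known strand only. Groups came from the sample titles, which were also followed where the peak names of 1 wild-type list spell the genotype differently and where the IgG samples list SALL4 as their antibody. The regions and gene lists were chosen with earlier results of these data known. Named genes were the best-ranked at starts, at ends, at ends of 2 genes and at both ends, the widest 2, and the members of the hand-written lists. Provisional gene names were passed over. The H1f3, H2ac8, H2bc14 and H2bc22 values were chosen after the values were seen. Distances, thresholds, overlaps and replicates were varied. The scripts were tested on simulated data. Software was pandas 2.3.3, scipy 1.17.1 and numpy 2.4.6 under Python 3.11.15.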

Additional observations from a re-analysis of the deposited data

How the results depend on the processing

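Of 94 alternatives over all results, 56 were labelled the same, 38 moved and 0 reversed. The same meant within the spread, the counting interval, the interval of rho or 1.5 times the count. The 8 on wild type against knockout followed another rule. They were labelled the same for any positive difference without a low p-value, which this design cannot give, so their label carries no information. Counts, shares and rho could not be labelled reversed. The alternatives on CCAAT, on the 2 to 10 kb flanks and most of those on histone genes were chosen after seeing the data. Within 250 bp of an end there were 657 regions (1.80%), a ratio to sequence of 2.21, a share at starts of 64.5% and a width ratio of 0.814. Within 1 kb there were 1643 regions (4.51%), a ratio of 1.47, 56.3% at starts, a width ratio of 0.893 and 34 genes of the hand-written lists in place of 21. At a −log10 q of at least 10 there were 215 regions (1.94%), a ratio of 1.21, a log2 fold ratio of -0.15, a width ratio of 0.804, a rho of 0.662, 9 genes of the hand-written lists, and 15 of the 81 histone genes (18.5%, against 1.17% of coding genes). In the same setting the ratio to sequence was 1.79 at starts and 0.798 at transcription ends, the A+T difference was 3 points, the CpG difference was 0.114, and 37.5% of windows held at least 3 CCAAT. With a reciprocal overlap of 50% the log2 fold ratio was -0.16, the width ratio 0.843 and the share found in the other list 59.4%. This share is a mean over the 2 lists and was 70.8% in the main setting. With summits within 100 bp the log2 fold ratio was -0.18, the width ratio 0.858 and the share 61.2%, and the ratio to sequence was 1.75. Against the 2 to 10 kb flanks that ratio was 1.28. With 1 wild-type replicate left out there were 1326 to 1546 regions, 2.86 to 2.93% of all, ratios to sequence of 1.79 to 1.83, log2 fold ratios of -0.11 to -0.067 and width ratios of 0.870 to 0.883. The CpG difference was 0.147 in overlapped windows, against 0.125 in all promoters of these genes, of which 19.8% held at least 3 CCAAT. The causes of these shifts were not tested, except that shorter distances, stricter thresholds and stricter overlaps accept fewer regions by construction. The log2 difference between wild type and knockout ran from 8.23 to 11.20. A replicate block that joins libraries of equal number left it at 10.48 (exact sign-flip test, p = 0.5, and 2 pairs cannot give less). With 1 value per library, whether the numbers pair the libraries was not tested. Leaving out a replicate gives no value for the share found in the other list or for rho. At 9 fragments a summit, single weak sites are near the limit of detection.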

Other observations

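Genes with a SALL4 region at an end also held other regions more often. Of the 1061, 482 (45.4%) had a further consensus region inside the gene, against 25.6% of the other 19604 coding genes. They were also longer, with a median of 22240 bp against 17242.5 bp, and the part of length in this difference was not tested.

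The share of consensus regions at gene ends differed between chromosomes, from 1.86% on chromosome 18 to 5.48% on chromosome 7 (98 of 1787). By genes the order was another one. Chromosome 13, which holds 55 of the 81 listed histone genes, had a region at 66 of 829 coding genes (7.96%), and chromosome 7 at 5.37%.

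After CCAAT, the words with the highest ratios of copies in promoter windows under a region to all promoters were CAATC at 2.23, AATCG at 1.94, CGTAA at 1.92 and TACGA at 1.82. The first shares 4 of its bases with CCAAT, and 3 of these 4 hold a CG pair.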
